A study of Mus musculus with 4 samples.

Results

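Histone and DNA modifying enzymes add or remove the chemical marks on chromatin, and their mRNA was compared between a parental mouse ovarian cancer cell line and a line recovered from omental tumors that the same cells had formed. The enzymes were taken by name from the probes of the array whose RefSeq accession led to a symbol of the Hdac, Sirt, Kdm, Kmt, Dnmt, Tet, Ezh or Prmt families. This gave 61 genes measured by 118 probes, of 22911 named genes and 56605 probes in all. The name pattern uses no expression value, but it was set with earlier results of these data known. The name pattern also takes in Dnmt3aos, an antisense transcript of the Dnmt3a locus that encodes no enzyme of this kind, and Kmt2a was not analysed here because no probe reached it through its accession.

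ID8 cells are mouse ovarian surface epithelial cells that transformed spontaneously in culture, and ID8G cells carry a retroviral GFP vector in addition. ID8G cells were injected into the peritoneal cavity of female C57BL/6 J mice, CD45-negative and GFP-positive cells were sorted from the omental tumors and cultured, and the injection and sorting were repeated to give GO2 cells. Both lines therefore carry GFP. The growth protocol gives them the same medium, and no drug is named for these samples. GO2 is a single selected line, so passage through mice, selection and further culture cannot be told apart. Total RNA of each line was hybridized to 2 one-color arrays, and nothing states whether the 2 samples of a line came from separate cultures, so the p values measure only the spread between these samples, which may be technical. All 4 arrays lay on 1 slide, the ID8G pair in one row of array positions and the GO2 pair in the other, so slide row and cell line cannot be told apart either.

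Histone deacetylases (HDACs) and the NAD-dependent sirtuins take acetyl groups off lysines, which generally closes chromatin to transcription. Lysine methyltransferases write, and lysine demethylases erase, methyl groups whose effect depends on the lysine: methylation by EZH2 in polycomb repressive complex 2 (PRC2) silences genes, whereas methylation by the KMT2 enzymes marks active promoters and enhancers. DNA methyltransferases place methyl groups on cytosine, TET dioxygenases oxidize them, and protein arginine methyltransferases modify histones, splicing factors and other proteins.

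The promoters of the genes whose difference was called in every setting that left out an array are shown here, because these 4 are the differences that the following text turns on. Each is the RefSeq window of 300 bases around the first listed start of the gene in GRCm38.p6, printed from 5′ to 3′ on the strand of the gene. Capitals mark matches, on either strand, to the GC box GGGCGG, the CCAAT box CCAAT, the hypoxia response element core ACGTG or the E2F core in the form TTGGCGC or the form TTCCCGC or the form TTCGCGC or the form TTGCCGC, and no 2 matches overlap in these sequences. The Dnmt3b window lies at chr2:153649199-153649498 on the plus strand, and those of Kdm4a at chr4:118179994-118180293, Ezh2 at chr6:47594981-47595280 and Kdm3a at chr6:71632868-71633167 lie on the minus strand.
Dnmt3b: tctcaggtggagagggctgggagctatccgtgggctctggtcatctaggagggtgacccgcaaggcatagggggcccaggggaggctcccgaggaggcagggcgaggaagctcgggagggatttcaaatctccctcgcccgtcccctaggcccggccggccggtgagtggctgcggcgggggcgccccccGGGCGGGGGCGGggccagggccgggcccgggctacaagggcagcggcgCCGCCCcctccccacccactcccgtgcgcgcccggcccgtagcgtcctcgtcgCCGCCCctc
Kdm4a: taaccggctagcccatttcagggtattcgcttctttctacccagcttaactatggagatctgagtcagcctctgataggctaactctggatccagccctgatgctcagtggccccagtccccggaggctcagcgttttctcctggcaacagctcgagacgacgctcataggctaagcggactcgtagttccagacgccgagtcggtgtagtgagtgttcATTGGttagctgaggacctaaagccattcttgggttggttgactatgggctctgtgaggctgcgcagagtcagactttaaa
Ezh2: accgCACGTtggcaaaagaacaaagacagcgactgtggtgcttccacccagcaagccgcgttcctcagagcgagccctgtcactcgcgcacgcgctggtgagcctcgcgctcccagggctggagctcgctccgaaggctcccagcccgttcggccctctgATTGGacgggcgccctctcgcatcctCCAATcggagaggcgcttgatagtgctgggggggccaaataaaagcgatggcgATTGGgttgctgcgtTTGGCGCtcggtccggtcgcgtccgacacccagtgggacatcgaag
Kdm3a: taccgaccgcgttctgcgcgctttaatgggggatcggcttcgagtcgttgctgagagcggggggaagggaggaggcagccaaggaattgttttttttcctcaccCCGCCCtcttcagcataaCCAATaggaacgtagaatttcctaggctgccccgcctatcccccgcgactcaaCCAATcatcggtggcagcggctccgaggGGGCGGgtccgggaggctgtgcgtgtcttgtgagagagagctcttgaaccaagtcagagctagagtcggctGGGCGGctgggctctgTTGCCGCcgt

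The Dnmt3b window holds 4 GC box matches and 30 CG dinucleotides. The Ezh2 window holds 3 CCAAT box matches, 1 E2F core match, 1 match to the hypoxia response element core and 31 CG dinucleotides. The Kdm3a window holds 3 GC box, 2 CCAAT box and 1 E2F core match with 24 CG dinucleotides, and the Kdm4a window 1 CCAAT box match with 13. Promoters were found for 51 of the 61 genes, with a median of 20 CG dinucleotides against 7 over the 27025 genes in the table. A GC box match was present in 62.75% of these 51 windows and in 35.9% of all windows, a CCAAT box match in 43.1% and 37.9%, the hypoxia response element core in 29.4% and 19.7%, and an E2F core in 13.7% and 9.69%. These counts describe letters in the windows, and no measurement of promoter activity or factor binding was made.

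Expression is given as the log2 level, which is the log2 intensity of a probe minus the 75th percentile of its array, and a difference is the GO2 mean minus the ID8G mean on that scale. Of the 118 probes, 98 probes of 57 genes passed a filter that asked for signal well above background on the whole array pair of 1 line or the other, and these were compared with limma. Hdac9, Hdac11, Kdm4d and Kdm5d did not meet this filter in either line. For Hdac9, a class IIa deacetylase, 1 of 5 probes was well above background on 1 array of each line. For Kdm5d, a Y-linked demethylase, 1 of 3 probes was so on 1 GO2 array. The single probes of Hdac11, the class IV deacetylase, and Kdm4d were well above background on no array. A total of 94 of the 98 probes were well above background on all 4 arrays.

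Differences between the lines were small for these enzymes. By the brightest tested probe of each gene, 6 of 57 genes were called higher and 11 lower in GO2 cells at an adjusted p below 0.05, or 29.8% in all, where 21.0% of all 13215 genes tested were higher and 20.0% were lower. This lower share in the enzymes was not kept in every setting. Normexp background correction, with all probes fitted together, gave 16 probes higher and 18 lower of 98, where 17.2% and 18.4% of all probes were. A fit with 1 probe per gene called 12 of the 57 genes higher and 16 lower, where 25.1% and 24.1% of all genes were. The genes gained there were Dnmt3l, Hdac6, Kdm4c, Kmt2e, Prmt2 and Prmt5, higher, and Hdac2, Hdac10, Kdm5a, Kdm5c and Prmt7, lower. Over probes, 9 were higher and 19 lower of 98, where 17.0% and 18.9% of all 28368 probes were. No probe was called at 2-fold or more in either direction by limma, against 4.50% and 3.34% of all probes and, by gene, 5.98% and 3.94% of all genes. At an unadjusted p below 0.05 limma found 2 probes at least 2-fold higher and 0 at least 2-fold lower. These 2, of Dnmt3l and Kdm4a, were well above background on neither ID8G array. They passed the filter only through the GO2 arrays, so this count cannot show a direction. The methods' t-test called 0 member probes after adjustment. Over all 28344 probes it called 0 higher and 3 lower, so the 0 cannot describe the enzymes. The median absolute difference was 0.18 for the enzymes and 0.21 for all genes. The median signed difference was -0.08 against 0.00, and the 2 lines did not overlap for 43 of 57 genes (75.4%), where 78.4% of all genes did not overlap. The GO2 pair lay above the ID8G pair for 19 genes and below it for 24, where 39.3% and 39.1% of all genes did so.

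**Figure D1:**
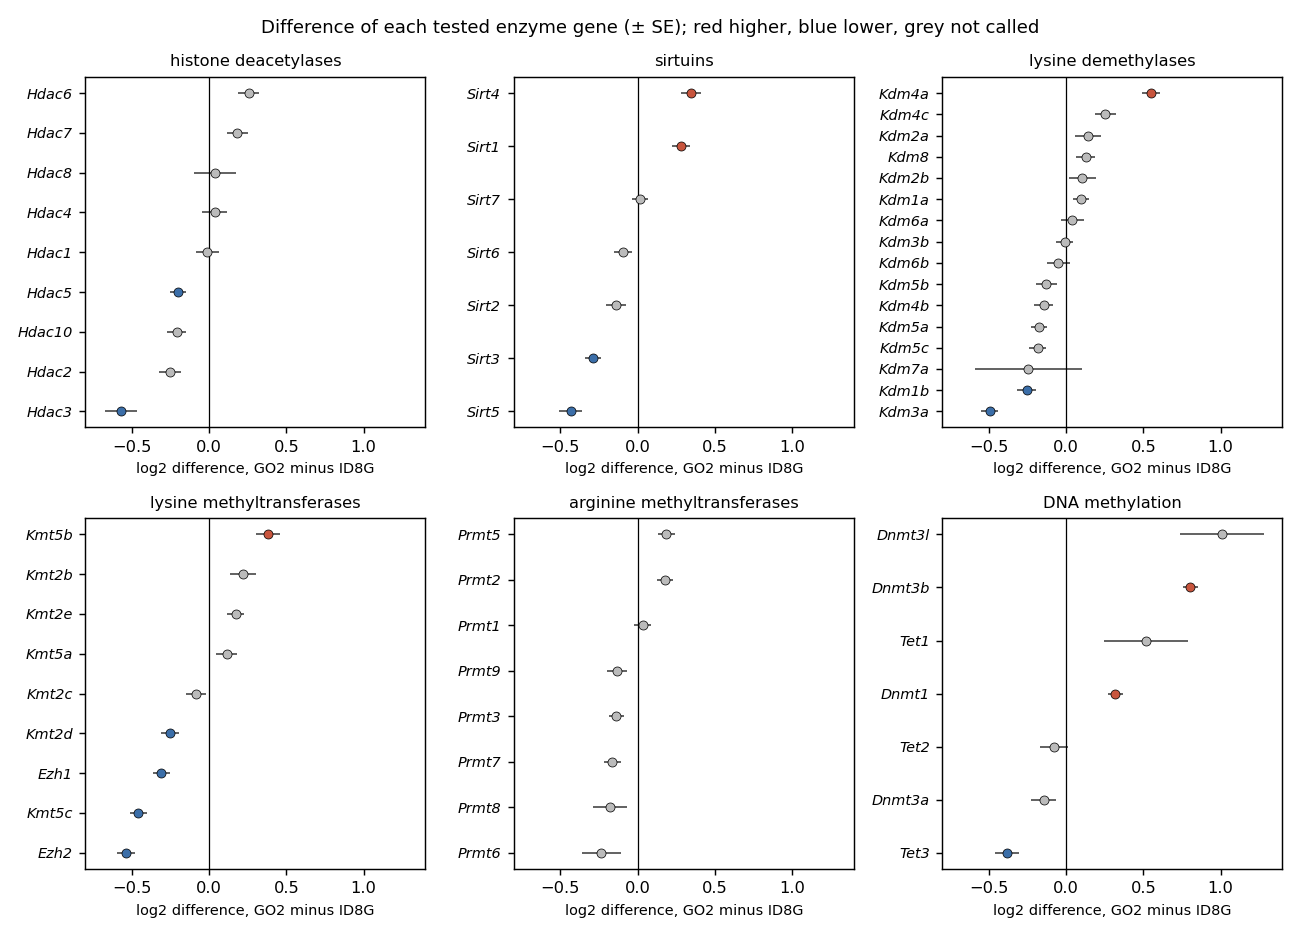
Difference of each tested enzyme gene between GO2 and ID8G cells on the log2 scale, by role, with limma standard errors as bars; 1 point per gene from its brightest tested probe, colored where the adjusted p is below 0.05. The called differences lie between -0.57 and 0.80, and the arginine methyltransferases hold no called gene in this fit. With 1 probe per gene in the fit, Prmt2, Prmt5 and Prmt7 were called.

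The calls depended on single arrays, among all probes as well as among the enzymes. Without any 1 of the 4 arrays, fewer member probes and a smaller share of all probes were called, in both directions. Each of these 4 settings leaves 1 array in a line, which is assumed to vary as the pair of the other line does. Dnmt3b, Ezh2, Kdm3a and Kdm4a were called in each of them. Hdac3 lost its call without either ID8G array and Kmt5c without either GO2 array, Sirt5 and Tet3 held theirs in 1 of the 4 settings, and the other 9 called genes in none. Scaling to the spike-in transcripts lowered the median of all probes from -0.02 to -0.23. It gave 5 member probes higher and 35 lower, where 8.59% and 33.6% of all probes were, but turned the direction of no called gene.

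The DNA methylation enzymes held the called gene with the largest difference. Dnmt3b, a de novo DNA methyltransferase, had log2 levels of -1.32 and -1.34 in ID8G cells and -0.52 and -0.53 in GO2 cells. Both GO2 arrays lay above both ID8G arrays, and the difference of 0.80 (SE 0.05, adjusted p = 0.00144) corresponds to 1.75-fold. Its second tested probe was also higher, by 0.61 (SE 0.10, adjusted p = 0.0144). Dnmt1, which copies methylation onto newly replicated DNA, had levels of 0.82 and 0.80 in ID8G cells and 1.13 on both GO2 arrays. The difference was 0.32 (SE 0.05, adjusted p = 0.0141). Spike-in scaling and each omission of an array ended this call.

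Dnmt3l, a cofactor of the de novo enzymes without catalytic activity of its own, was not well above background in ID8G cells. Its levels were -4.07 and -4.45 there and -3.59 and -2.92 in GO2 cells, at least 1.34-fold higher, and the difference of 1.01 (SE 0.27) did not pass the threshold (adjusted p = 0.0534). It passed in 5 of 12 settings that kept all arrays and also without the first GO2 array, and the difference ranged from 0.39 with normexp background correction to 1.34 without that array. The brightest probe of Dnmt3a, the other de novo enzyme, had levels of 1.20 and 1.26 in ID8G cells and 0.998 and 1.17 in GO2 cells and was not called. A dimmer Dnmt3a probe was called lower by 0.63 (SE 0.09, adjusted p = 0.0120), so that probes of this gene disagree in call. The antisense Dnmt3aos differed by -0.15 and its arrays overlapped.

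Among the enzymes that oxidize methylcytosine, Tet3 was lower in GO2 cells. Its levels were -0.77 and -0.71 in ID8G cells and -1.20 and -1.04 in GO2 cells, a difference of -0.38 (SE 0.08, adjusted p = 0.0277), while a dimmer probe differed by -0.14 and was not called. Tet2 differed by -0.08 at its brightest probe, whose arrays overlapped, and by -0.25 (adjusted p = 0.0481) at a dimmer one. Tet1 was well above background on 1 of the 2 ID8G arrays and on both GO2 arrays, and its difference of 0.52 (SE 0.27) was not called.

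**Figure D2:**
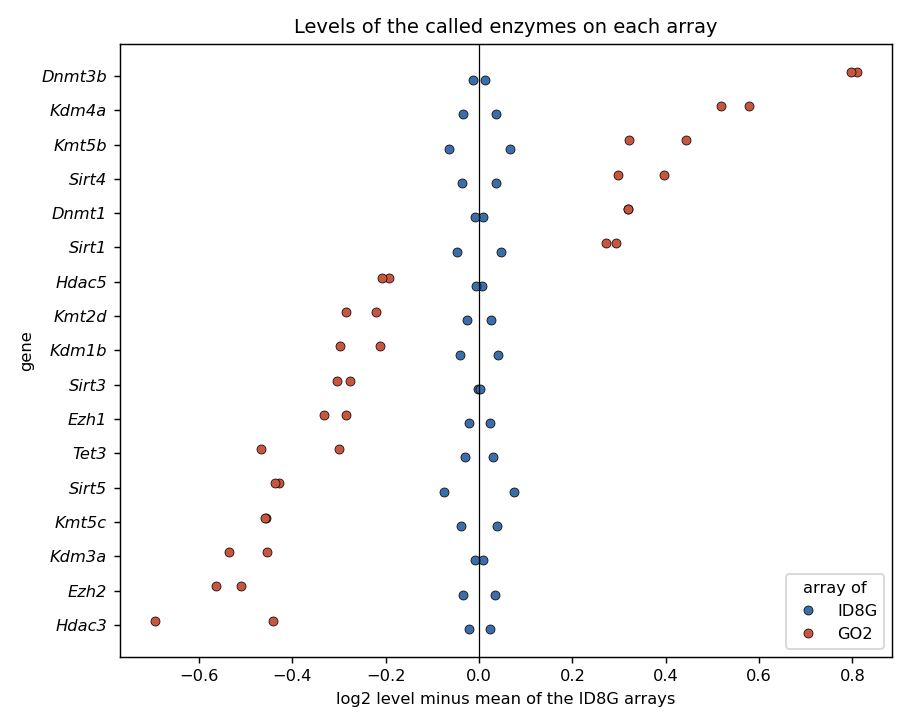
Log2 level of the 17 called enzyme genes on each array, minus the mean of the 2 ID8G arrays; each point is 1 array. The GO2 arrays of Dnmt3b lie at about 0.80 and those of Hdac3, the gene with the largest decrease, are the most widely spread.

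Of the lysine methyltransferases, Kmt5b was higher and Ezh2, Kmt5c, Ezh1 and Kmt2d were lower in GO2 cells. Ezh2, the main catalytic subunit of PRC2, had levels of 3.45 and 3.38 in ID8G cells and 2.90 and 2.85 in GO2 cells. The difference was -0.54 (SE 0.06, adjusted p = 0.00566), 1.45-fold lower, without overlap between the lines. All 5 Ezh2 probes were called lower, with differences from -0.54 to -0.35. Ezh1, the alternative catalytic subunit, had levels of 4.33 and 4.38 in ID8G cells and 4.02 and 4.07 in GO2 cells, a difference of -0.31 (SE 0.05, adjusted p = 0.0191).

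The KMT5 enzymes methylate lysine 20 of histone H4, and their genes differed in both directions. Kmt5b had levels of 0.04 and -0.09 in ID8G cells and 0.42 and 0.30 in GO2 cells, a difference of 0.38 (SE 0.08, adjusted p = 0.0287). All 6 Kmt5b probes had positive differences and 3 of them were called. Kmt5c, which acts with Kmt5b on the same lysine, had levels of 3.40 and 3.33 in ID8G cells and 2.91 on both GO2 arrays, a difference of -0.46 (SE 0.06, adjusted p = 0.00776). Its dimmer probe differed by 0.10 with overlapping arrays, and Kmt5c was the only called gene whose probes differed in sign. Kmt5a, which adds the first methyl group, differed by 0.11 and was not called.

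In the KMT2 family, which methylates lysine 4 of histone H3, Kmt2d was lower, with levels of -0.92 and -0.87 in ID8G cells and -1.18 and -1.12 in GO2 cells. The difference was -0.25 (SE 0.06, adjusted p = 0.0345). Kmt2b, Kmt2c and Kmt2e had differences of 0.22, -0.08 and 0.17 and were not called.

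Of 16 lysine demethylases tested, Kdm4a was higher and Kdm3a and Kdm1b were lower. Kdm4a, which removes methyl groups from lysines 9 and 36 of histone H3, had levels of 1.73 and 1.80 in ID8G cells and 2.35 and 2.29 in GO2 cells. The difference was 0.55 (SE 0.06, adjusted p = 0.00559), or 1.46-fold. A dim Kdm4a probe, not well above background on either ID8G array, was at least 1.63-fold higher and was not called (adjusted p = 0.0784). Kdm3a, a lysine 9 demethylase known to respond to hypoxia, had levels of 2.57 and 2.55 in ID8G cells and 2.11 and 2.02 in GO2 cells. The difference was -0.50 (SE 0.06, adjusted p = 0.00669), or 1.41-fold lower. Kdm1b, a flavin-dependent demethylase of lysine 4, had levels of 1.23 and 1.15 in ID8G cells and 0.98 and 0.90 in GO2 cells, a difference of -0.26 (SE 0.06, adjusted p = 0.0448).

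The other 13 demethylases were not called. Kdm1a, the paralog of Kdm1b, differed by 0.09. The tested KDM5 genes, which encode lysine 4 demethylases, differed by -0.18 for Kdm5a, -0.13 for Kdm5b and -0.18 for Kdm5c. In each the GO2 arrays lay below the ID8G arrays, as they did for 39.1% of all genes. The KDM6 genes, whose products remove the mark that EZH2 writes, had overlapping arrays, with differences of 0.04 for Kdm6a and -0.05 for Kdm6b. The brightest probes of Kdm2a and Kdm2b differed by 0.14 and 0.11, that of Kdm3b by -0.01, and those of Kdm4b and Kdm4c by -0.15 and 0.25. Kdm8 differed by 0.13, and Kdm7a, well above background on both ID8G arrays and 1 GO2 array, by -0.24 with overlapping arrays. Probes of Kdm2a and Kdm4c differed in sign, and none of these probes was called.

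Among the 9 HDAC genes tested, 0 were called higher and 2 lower, where 21.0% and 20.0% of all genes were. Hdac3, the catalytic subunit of the NCoR and SMRT corepressor complexes, had levels of 2.04 and 2.08 in ID8G cells and 1.62 and 1.37 in GO2 cells. The GO2 arrays lay below the ID8G arrays and differed more from each other, and the difference was -0.57 (SE 0.10, adjusted p = 0.0202), or 1.48-fold lower. Its second probe was lower by 0.34 (SE 0.07, adjusted p = 0.0253). Hdac5, a class IIa enzyme, had levels of 3.88 and 3.87 in ID8G cells and 3.68 and 3.67 in GO2 cells, a difference of -0.20 (SE 0.05, adjusted p = 0.0438).

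The remaining HDACs did not pass the threshold. Hdac1 and Hdac2, which share the Sin3, NuRD and CoREST complexes, differed by -0.01 and -0.25 (adjusted p = 0.0600 for Hdac2). Hdac8 and Hdac4 both differed by 0.04 with overlapping arrays. Hdac6, the cytoplasmic tubulin deacetylase, differed by 0.26 (adjusted p = 0.0526), Hdac7 by 0.18 and Hdac10 by -0.21. These counts depend on the setting, since of 13 settings that kept all arrays Hdac6 was called higher in 6 and Hdac2 and Hdac10 were called lower in 5 each. At an unadjusted p below 0.05, limma found 1 HDAC gene higher and 4 lower, and the methods' t-test found 0 higher and 1 lower.

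The sirtuins differed in both directions. Sirt1, a nuclear deacetylase, had levels of -0.04 and 0.05 in ID8G cells and 0.28 and 0.30 in GO2 cells, a difference of 0.28 (SE 0.06, adjusted p = 0.0294). Sirt4, Sirt3 and Sirt5 encode the mitochondrial sirtuins, which act on metabolic enzymes rather than on histones. Sirt4 was higher, with levels of -0.73 and -0.66 in ID8G cells and -0.40 and -0.30 in GO2 cells and a difference of 0.35 (SE 0.07, adjusted p = 0.0223). Sirt5 was lower, with levels of 0.89 and 0.74 in ID8G cells and 0.39 and 0.38 in GO2 cells and a difference of -0.43 (SE 0.07, adjusted p = 0.0166). Sirt3 was also lower, with levels of 1.80 on both ID8G arrays and 1.52 and 1.49 in GO2 cells and a difference of -0.29 (SE 0.05, adjusted p = 0.0184). Sirt2, Sirt6 and Sirt7 had differences of -0.14, -0.09 and 0.01 and were not called.

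No arginine methyltransferase gene was called by limma at its brightest probe, of 8 tested, when all probes were fitted together. Over all genes, 21.0% were called higher and 20.0% lower in that fit. With 1 probe per gene in the fit, Prmt2 and Prmt5 were called higher and Prmt7 lower. At an unadjusted p below 0.05 limma found 2 higher and 2 lower, and the methods' t-test found 0 higher and 1 lower. Prmt1, the enzyme responsible for most asymmetric arginine dimethylation, had levels of 6.15 and 6.13 in ID8G cells and 6.21 and 6.13 in GO2 cells. Its arrays overlapped and the difference was 0.03 (SE 0.06). Prmt5, the main symmetric dimethyltransferase, differed by 0.19 (adjusted p = 0.0701) and Prmt2 by 0.18. Prmt3, Prmt7, Prmt8 and Prmt9 had differences of -0.14, -0.16, -0.18 and -0.13. Prmt6 differed by -0.23 at its brightest probe, and a dimmer probe was called lower by 0.54 (SE 0.06, adjusted p = 0.00555).

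Where a gene had several tested probes, the direction was usually shared. Of 29 such genes, 25 had 1 sign on all tested probes, and the 4 with both signs were Kmt5c, Kdm2a, Kdm4c and Prmt1. Among the called genes with more than 1 tested probe, only Kmt5c had both signs. Kdm3a, Sirt5, Dnmt1, Ezh1, Sirt3, Sirt1, Kdm1b, Kmt2d and Hdac5 had 1 tested probe each, so agreement between probes could not be examined for them.

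**Figure D3:**
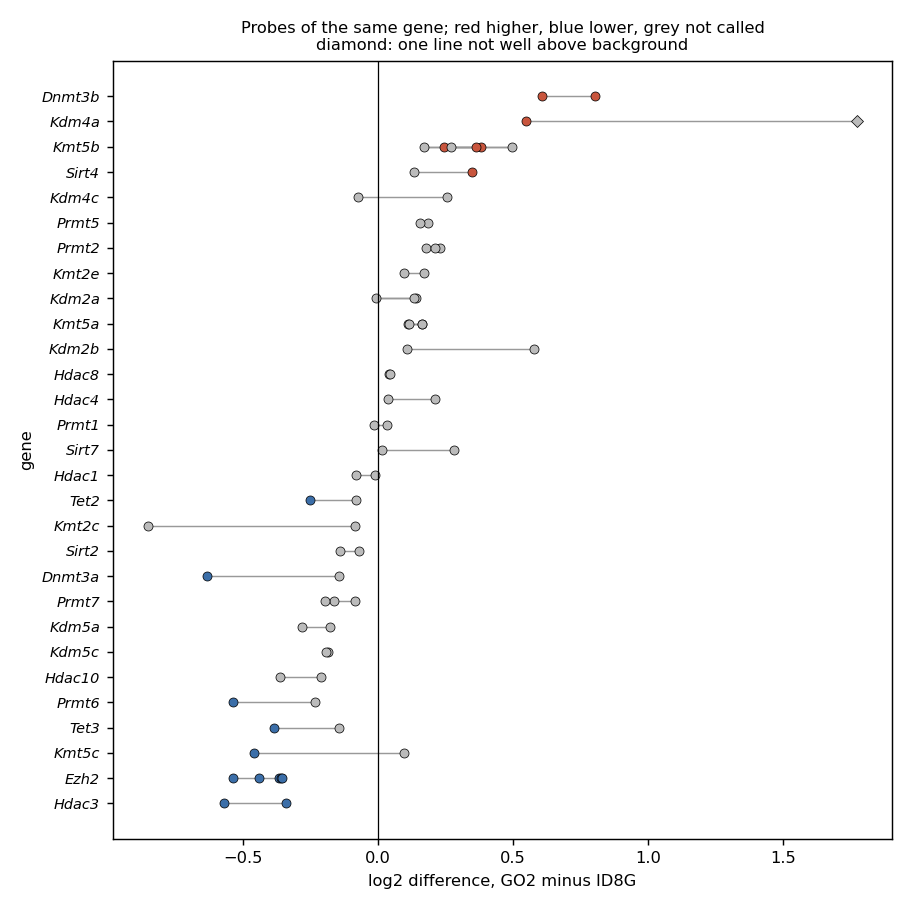
Difference of each tested probe on the log2 scale for the 29 enzyme genes with more than 1 tested probe; points of a gene are joined, colors mark called probes and a diamond a probe with a line not well above background. All 5 Ezh2 probes lie below 0 and all 6 Kmt5b probes above 0, and Kmt5c is the called gene with points on both sides.

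The genes that work with these enzymes are given by counts beside the 21.0% higher and 20.0% lower over all genes. The PRC2 partners held 3 higher and 1 lower of 10 tested. The accessory subunits Phf19 and Phf1, which help PRC2 bind chromatin, were higher by 0.66 (SE 0.05, adjusted p = 0.00263) and 0.60 (SE 0.05, adjusted p = 0.00355), against the lower Ezh2 and Ezh1. Rbbp4 was higher by 0.20 and Jarid2 was lower by 0.38, whereas the core subunits Eed and Suz12 had differences of -0.09 and -0.18 and were not called. The PRC1 subunits held 4 higher and 4 lower of 20. Cbx7, which reads the mark that EZH2 writes, was the 1 PRC1 gene past 2-fold, with levels of -1.47 and -1.34 in ID8G cells and -0.25 and -0.34 in GO2 cells and a difference of 1.11 (SE 0.07, adjusted p = 0.00167).

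The HDAC corepressor complexes held 6 higher and 6 lower of 32, and the list of COMPASS subunits, which serve the KMT2 enzymes, 3 higher and 0 lower of 18. The 3 were Rbbp5, a core COMPASS subunit, by 0.26, Psip1, which tethers proteins to chromatin, by 0.34, and Kansl1, by 0.56. Kansl1, like Kansl2 and Kansl3 of the same list, belongs to the NSL acetyltransferase complex rather than to COMPASS. A dimmer probe of Dpy30 and one of Bod1l were called lower. At an unadjusted p below 0.05 limma found 1 COMPASS gene lower and the methods' t-test 0. Other lysine methyltransferases held 3 higher and 4 lower of 26, and arginine methylation partners 2 and 2 of 9. Other demethylases held 2 and 2 of 8, with Hr, a lysine 9 demethylase of the hair follicle, lower by 1.42 (SE 0.16, adjusted p = 0.00640). The DNA methylation readers and partners held 2 higher and 6 lower of 20, with Apobec1, a cytidine deaminase, lower by 1.80 (SE 0.12, adjusted p = 0.00160).

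The acetyltransferases, which oppose the deacetylases, held 3 higher and 3 lower of 14. Kat2a was higher by 0.47, Ncoa2 by 0.23 and Kat14 by 0.22, and Ncoa3 was lower by 0.46, Ep300 by 0.36 and Kat2b by 0.28. The Ep300 call lay close to the threshold (adjusted p = 0.0495), and a second probe of similar level differed by -0.02 with overlapping arrays. The dimmer probe of Kat14 differed by -0.09 and was not called. Crebbp, the paralog of Ep300, differed by -0.11 at its brightest probe and by 0.29 (limma adjusted p = 0.0504) at a dimmer one. Neither Crebbp probe was called. Hat1, Kat5, Kat6a, Kat6b, Kat7, Kat8 and Ncoa1 lay between -0.18 and 0.19 and were not called either.

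**Figure D4:**
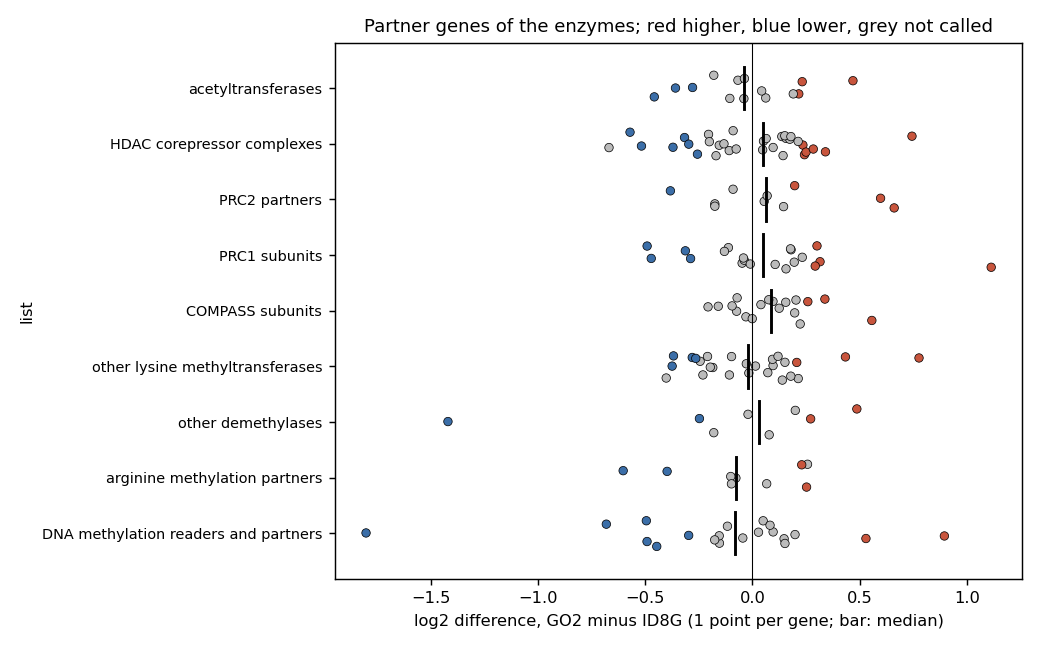
Difference of each tested partner gene on the log2 scale by list, 1 point per gene from its brightest tested probe, with the list median as a bar and colors for an adjusted p below 0.05. Most lists hold points on both sides of 0 and medians within 0.09 of it, and the lowest points are Apobec1 and Hr.

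Markers of other cell types and of proliferation were set beside these results. Over all genes tested, 21.0% were called higher and 20.0% lower. Proliferation genes held 0 higher and 4 lower of 22 tested, with a median difference of -0.16, and at an unadjusted p below 0.05 limma found 1 higher and 11 lower and the methods' t-test 3 in each direction. Of 11 fibroblast markers, 6 were tested, and Col1a1, Col1a2, Col3a1, Pdgfra and Pdgfrb were each more than 2-fold higher in GO2 cells, whereas Dcn was lower. The summed linear level of this list, relative to the 75th percentile, was 68.6 to 71.4 in ID8G cells and 150.2 to 150.7 in GO2 cells. The ovarian surface and mesothelial list, tested for 9 of 11 genes without Krt7 and Epcam, summed to 664.4 to 671.5 and 381.9 to 385.9. Its genes did not all move together. Of the 9 tested, 1 was called higher and 4 lower, with 1 past 2-fold in each direction. Macrophage markers summed to 22.5 to 25.2 and 21.8 to 21.9. Of the 11, 5 were well above background on both ID8G arrays and 4 on both GO2 arrays. Of 5 tested, 0 were called higher and 2 lower. Ptprc, the gene for CD45, was among the 6 that were well above background on no array. Adipocyte markers summed to 3.71 to 3.85 and 2.56 to 2.88, and endothelial markers to 0.19 to 0.23 and 0.21 to 0.24. In bulk RNA, a change in the share of cells of a kind and a change in RNA per cell cannot be told apart, and the part of these markers in the enzyme differences was not tested.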

How the data were processed

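Each line was hybridized to 2 of the 4 Agilent arrays. The authors deposited linear spot intensity values from Feature Extraction 11.5.1.1, which subtracts background but leaves arrays unscaled. The authors also deposited a table of log2 values, scaled to the 75th percentile and centered per probe, which served as 1 alternative. Of the per-sample columns, 0 were unused.

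Outlier spots were left out, spots of a probe averaged, and the 75th percentile over non-control probes subtracted from the log2 intensity. Between 27502 and 28841 of 56605 probes per array were well above background. The 28368 probes with such signal on the whole array pair of 1 line or the other were fitted with limma 3.58.1 in R 4.3.3, with Benjamini-Hochberg adjustment over all of them. The smallest two-sided p of an exact permutation test between 2 and 2 arrays is 0.333, so calls rest on the variance that limma pools over probes, and the number of arrays limits the precision. A gene is represented by its tested probe with the highest mean. Where a line was well above background on neither array, the lowest such signal of each array stood in where it was the higher, which makes the fold a lower bound. RefSeq accessions (GRCm38.p6) named 32994 probes. The arrays were designed on mm9, so coordinates are given for promoters only. Figures used matplotlib 3.10.9 in python 3.11.15.

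Named by rule are members called at 2-fold, the 12 further called members with the largest difference, in each family the member with the brightest probe, members not tested, members whose probes disagree, list genes called at 2-fold, and the acetyltransferase genes. Some of the genes so chosen are not reported here. Other genes were named after their values were seen, among them Sirt3, Sirt1, Kdm1b, Kmt2d and Hdac5. Members and lists were chosen with earlier results of these data known. Alternatives were other background correction, scaling, filters and tests, the replicate number as a block, 1 probe per gene, and each array left out. The procedure was tested on simulated data in which few probes changed, and there the estimates were unbiased and false calls few, but differences as small as most of those of the enzymes were almost never called. A first simulated draw found fewer of the large differences than had been required, after which the requirement was relaxed to unbiased estimates and few false calls.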

Additional observations from a re-analysis of the deposited data

How the results depend on the processing

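The main fit gave 9 member probes higher and 19 lower of 98, where 17.0% and 18.9% of all probes were. Normexp background correction gave 16 and 18 (17.2% and 18.4% of all probes). An intensity trend in the variance gave 21 and 24 (21.2% and 24.2%). Spike-in scaling gave 5 and 35 (8.59% and 33.6%). No filter on dim probes gave 2 and 0 of 118 (3.57% and 3.37%). Limma treat gave 0 and 0 (2.64% and 1.55% of all probes). The methods' t-test also gave 0 and 0, where it called 0 and 3 of all 28344 probes. At an unadjusted p below 0.05 the t-test found 5 member probes higher and 12 lower. With an array left out, 3 to 6 were higher and 5 to 8 lower. At 2-fold the main count was 0 in both directions. There was 1 higher with spike-in scaling, without the filter and with 1 probe per gene, 2 higher with the variance trend, and 1 lower with spike-in scaling. With the filter and all arrays kept, the higher probes were those of Dnmt3l and Kdm4a that were well above background on neither ID8G array. They passed the filter only through the GO2 arrays, so these counts of higher probes cannot show a direction. With an array left out, 0 to 2 were higher and 0 to 1 lower at 2-fold. The cause was not tested, except that a left-out array leaves fewer samples and the missing filter adds probes to the adjustment.

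The replicate number as a block gave 8 higher and 15 lower. Deviations of same-numbered samples correlated at 0.0273 over probes, so the numbers were not taken to pair the samples. The slide as a block was not run because there is 1 slide.

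Of the 17 called genes, Dnmt3b was called in all 13 settings that kept every array (other than treat and the t-test), and Ezh2, Kdm3a, Kdm4a, Hdac3, Kmt5c, Sirt5, Tet3, Ezh1 and Sirt3 in 12, losing the call without the filter on dim probes. Spike-in scaling also ended the calls of Dnmt1, Kmt5b, Sirt4 and Sirt1, normexp those of Hdac5 and Kmt2d, and the replicate block those of Hdac5, Kmt2d and Kdm1b. Of the 40 genes not called, 19 were called in at least 1 of the settings that kept every array. In 20 genes the sign changed in 31 values, and none was called under either setting. With spike-in scaling the difference became -0.17 for Hdac4, -0.0243 for Hdac7, -0.17 for Hdac8, -0.11 for Kdm1a, -0.0649 for Kdm2a, -0.10 for Kdm2b, -0.17 for Kdm6a, -0.0803 for Kdm8, -0.0365 for Kmt2e, -0.0944 for Kmt5a, -0.17 for Prmt1, -0.0302 for Prmt2, -0.0223 for Prmt5 and -0.19 for Sirt7. It became 0.0375 for Hdac1 with quantile normalization, 0.0524 for Kdm3b with normexp and -0.0156 for Sirt7 with median centring. With an array left out it ranged from -0.32 to 0.0127 for Dnmt3aos, -0.0883 to 0.0655 for Hdac1, -0.045 to 0.1175 for Hdac4, -0.13 to 0.21 for Hdac8, -0.033 to 0.0152 for Kdm3b, -0.0323 to 0.1128 for Kdm6a, -0.13 to 0.031 for Kdm6b, -0.72 to 0.24 for Kdm7a, -0.0015 to 0.0697 for Prmt1, -0.0097 to 0.0387 for Sirt7 and -0.19 to 0.0271 for Tet2.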

Other observations

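The genes that make, use or recycle the cofactors of these enzymes were counted in the same way. The counts stand beside the 21.0% called higher and 20.0% called lower over all genes tested. Of 9 genes tested that make or consume NAD, the cosubstrate of the sirtuins, 2 were higher and 4 lower in GO2 cells. Naprt, which makes NAD from nicotinic acid, had log2 levels of -0.15 and -0.09 in ID8G cells and 1.335 and 1.332 in GO2 cells, a difference of 1.45 (SE 0.05, limma adjusted p = 0.000452). Nampt, the rate-limiting enzyme of the salvage of nicotinamide, was lower by 0.33, and Cd38, an NAD-consuming enzyme, was lower by 0.94.

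Of 11 genes tested for methyl donor metabolism, 2 were higher and 3 lower. Mat2a, which makes S-adenosylmethionine, was lower by 0.20. A list of 19 tested genes covers the making of 2-oxoglutarate, a cosubstrate of the TET and most KDM enzymes, and also its use and the later steps to fumarate and malate, and 1 was higher and 5 lower. Gpt2, a mitochondrial alanine transaminase, was higher by 1.61 (SE 0.09, limma adjusted p = 0.00113), and Idh1 was lower by 0.65. The other lower genes were Idh3a and Bcat2, and Sdha and Sdhd, subunits of succinate dehydrogenase, which does not make 2-oxoglutarate. Of these genes, Naprt and Gpt2 were named by rule and the others after their values were seen.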
